A study of Mus musculus with 6 samples.

Results

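Wfs1, Cisd2 with its paralogs, and Ncs1 were followed in whole retinas by RNA-seq. Members were chosen by gene symbol, with no threshold on measured values. They are the Wolfram syndrome genes Wfs1 and Cisd2, the Cisd2 paralogs Cisd1 and Cisd3, and Ncs1, a calcium sensor that binds wolframin. These are 5 of the 55376 genes in the count table, and all 5 were among the 18547 genes with enough counts to be tested. Retinas came from 3 WT and 3 Wfs1-KO mice at postnatal day 240. The mutant mice were homozygous for an allele in which exon 8 of Wfs1 is deleted in every cell of the body. All mice were given the strain C57x129 in the sample labels, whereas the methods name a C57BL/6 J background. Sex was not given, and no treatment was named for either genotype. Each retina came from a different mouse, and p-values measure the spread between these animals.

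Wolframin, the product of Wfs1, is a membrane protein of the endoplasmic reticulum (ER) that takes part in protein folding and calcium handling there. Loss of it in humans gives Wolfram syndrome, with diabetes and loss of retinal ganglion cell axons in the optic nerve. CISD2 sits in the ER membrane and at its contacts with mitochondria, and its loss gives the rarer form of the syndrome. CISD1 (mitoNEET) sits in the outer mitochondrial membrane and CISD3 inside mitochondria. All 3 CISD proteins hold iron-sulfur clusters in a short CDGSH domain through cysteine and histidine side chains. NCS1 is an EF-hand calcium sensor of neurons that binds wolframin and the inositol trisphosphate receptor.

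The mutant allele is described as a deletion of exon 8 of Wfs1, and the annotated edge of that exon is shown to place it in the gene. The breakpoints of the allele were not determined here, so this edge need not be that of the deletion. Wfs1 (ENSMUSG00000039474.13) lies on the minus strand at chr5:36966104-36989205 of mm10. Its 8 exons span 3787 bases, and exon 8 at chr5:36966104-36968678 holds 2575 of them. That is 68.0% of the exon length and 67.5% of the coding sequence, and codon 290 of 890 is the first one read from it. The join of exon 7, in lower case (chr5:36971558-36971587), to exon 8, in capitals (chr5:36968649-36968678), reads as follows in the GENCODE M21 transcript.
Wfs1 exon 7 to exon 8: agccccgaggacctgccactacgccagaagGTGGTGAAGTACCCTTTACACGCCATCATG

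The CISD genes are told apart in short reads only as far as their sequences differ, so the stretch that codes for their iron-sulfur site is also shown. Each run is 48 bases of the GENCODE M21 transcript on its coding strand, with the 3 cysteine codons and the histidine codon of the site in capitals. Cisd1 (ENSMUSG00000037710.8, minus strand) carries it at codons 72 to 87, across exons 2 and 3, within chr10:71331103-71336237. Cisd2 (ENSMUSG00000028165.9, minus strand) carries it at codons 99 to 114, across exons 2 and 3, within chr3:135408867-135411034. Cisd3 (ENSMUSG00000078695.8, plus strand) has a pair of sites. Its first covers codons 70 to 85 across exons 2 and 3, within chr11:97686594-97688288, and the other codons 108 to 123 in exon 3, at chr11:97688355-97688402.
Cisd1: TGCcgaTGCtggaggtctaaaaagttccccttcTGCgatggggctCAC
Cisd2: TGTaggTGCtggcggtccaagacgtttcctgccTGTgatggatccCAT
Cisd3 site 1: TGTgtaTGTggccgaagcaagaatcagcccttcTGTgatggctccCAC
Cisd3 site 2: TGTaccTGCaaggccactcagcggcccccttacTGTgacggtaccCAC

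Of the 48 bases, 32 were identical between the Cisd1 and Cisd2 sites, 28 between Cisd1 and the first Cisd3 site, and 25 between both sites of Cisd3. The coding transcripts used for each gene were then compared over their whole length, untranslated parts included. The longest run of bases found in both, at any position, was 11 for Cisd1 and Cisd2. It was 8 for Cisd1 and Cisd3, and 10 for Cisd2 and Cisd3. No stretch of 50 bases of these transcripts was thus shared among the CISD genes. Sharing with other genes was limited to pseudogenes. Cisd2 shared 19 such stretches with Gm4270, which had 0 counts in every retina. Cisd1 shared 11 with Gm8738, whose counts were 0.229% to 0.653% of those of Cisd1 in 5 retinas and 2.65% in Wfs1-KO replicate 2. No exon of the 5 genes overlapped another annotated gene. Ncs1 (ENSMUSG00000062661.6) lies on the plus strand at chr2:31245823-31295989 and shared no stretch.

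Library totals ranged from 17916885 counts in WT replicate 3 to 101334381 in Wfs1-KO replicate 1. Members had at least 304 counts in every library, apart from the 38 counts of Wfs1 in Wfs1-KO replicate 2. Markers of the retina, rod to ganglion cell, were all detected, each with at least 154 counts in every one of the 6 libraries. Wfs1-KO replicate 2 stood apart, with a mean Pearson correlation of 0.918 to the other libraries across genes against 0.962 to 0.971 for each other retina. Levels are in CPM, that is counts relative to a library size adjusted with TMM factors. Summed retina markers were 50728 CPM in that library and 67125 to 75410 in the other 5. They did not fall together: 6 of the 21 were higher there than in any other library. Summed pigment epithelium markers were 372 CPM there and 28.97 to 89.7 in the others, erythrocyte markers 480 against 12.3 to 41.2, and cornea markers 41.4 against 0.572 to 1.59. Microglia and macrophage markers were 83.6 CPM against 26.3 to 36.9, and ciliary body and iris markers 52.5 against 7.47 to 13.3. Lens markers were 8.60 CPM against 1.58 to 3.48, and oligodendrocyte markers 50.7 against 36.3 to 45.99. WT replicate 3 was the only library with Y-linked Ddx3y (1137 counts, at most 2 elsewhere) and with nearly no Xist (4 counts, at least 10583 elsewhere). Results of the 5 members are therefore also given without each of these retinas, and those of other named genes without Wfs1-KO replicate 2.

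In WT retinas the 5 genes were all well expressed, and Cisd1 stood highest. Levels of different genes are compared per length, as CPM per kilobase of exon. Cisd1 had 75.1 ± 9.11 CPM per kilobase (SD, n = 3), above at least 95.9% of tested genes in each WT retina. Cisd3 followed with 24.5 ± 4.74, Cisd2 with 22.6 ± 3.44, Wfs1 with 17.3 ± 1.14 and Ncs1 with 16.01 ± 1.28 CPM per kilobase (SD, n = 3). The ranges of Cisd3 (20.7 to 29.8) and Cisd2 (19.0 to 25.8) overlapped, as did those of Wfs1 (16.2 to 18.5) and Ncs1 (14.7 to 17.2), so neighbours within these pairs did not differ beyond their spread. Cisd1 lay apart from the first pair, and the first pair lay just above the other in all 3 WT retinas. The place of Cisd2 depended on the length used: with its longest coding transcript of 3361 bases in place of the 4360 exon bases of the table, its mean was 29.3 CPM per kilobase.

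**Figure D1:**
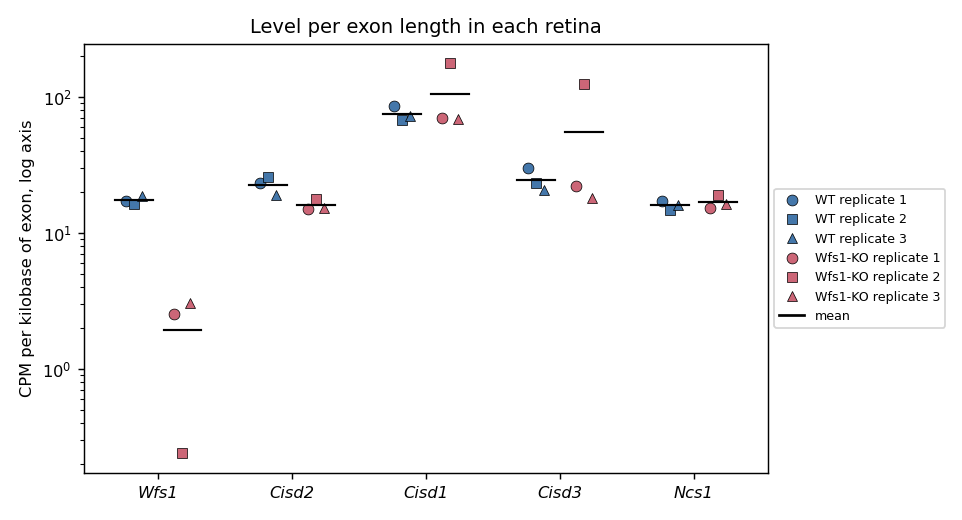
Level of each gene per exon length in each retina, in CPM per kilobase of exon on a log axis. Points are single retinas, WT in blue and Wfs1-KO in red, and bars are means of 3. Cisd1 is highest in every retina, and Wfs1 is lowest in every mutant retina. Wfs1 is divided by all 3787 exon bases in both genotypes, the deleted exon 8 included.

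Wfs1 itself lay below the WT range in all 3 mutant retinas, but not by the same amount. Wfs1 had 64.9, 61.4 and 69.9 CPM in WT replicates 1, 2 and 3, and 9.63, 0.900 and 11.5 CPM in Wfs1-KO replicates 1, 2 and 3. The genotypes did not overlap, and Wfs1-KO replicate 2 lay far below the other mutant retinas. In reads, the mutant libraries held 992, 38 and 506 counts of Wfs1. As shares of the WT mean of CPM these were 14.7%, 1.38% and 17.6%. Per length, Wfs1 lay above at least 77.9% of tested genes in each WT retina. In Wfs1-KO replicates 1, 2 and 3 it lay above 40.2%, 11.1% and 42.7%. The divisor was all 3787 exon bases in both genotypes, exon 8 included. For a transcript that lacks exon 8 this understates the level per length, so the mutant ranks are not like for like. Exons 1 to 7, which lie outside the deleted exon, make up 1212 bases or 32.0% of the exon length. Counts were deposited per gene, so the position of the mutant reads along Wfs1 was not analysed here.

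The spread among mutant retinas set the error of this difference. The log2 fold change was -3.15 (standard error, SE, 0.77; 95% confidence interval -4.96 to -1.34) with edgeR's quasi-likelihood test, and Wfs1 ranked number 52 of all tested genes by unadjusted p. Its adjusted p was 0.979 after Benjamini-Hochberg adjustment, and an exact two-sided permutation test of log2 CPM gave p = 0.1, the smallest that 3 against 3 retinas allow. Without Wfs1-KO replicate 2 the log2 fold change was -2.64 (SE 0.16, edgeR adjusted p = 2.84e-05), a level 6.23-fold lower than in WT, and Wfs1 ranked number 4. Without WT replicate 3 it was -3.11 (SE 0.90). The allele is described as a deletion of exon 8, which holds 68.0% of the exon length counted for Wfs1. Beyond this, fewer cells of a type and less RNA per cell cannot be told apart in bulk tissue.

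The bar for the 5 genes is set by how few genes passed overall. On 6 retinas, 0.0108% of tested genes (2 of 18547) had an edgeR adjusted p under 0.05, and none of the 5 members was among them. Before adjustment, 521 genes had a p under 0.05, Wfs1 and Cisd2 among them. Without Wfs1-KO replicate 2, 0.125% of tested genes (24 of 19178) passed, and of the members only Wfs1 did. DESeq2 on 6 retinas called 49 genes, again with Wfs1 as the only member.

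**Figure D2:**
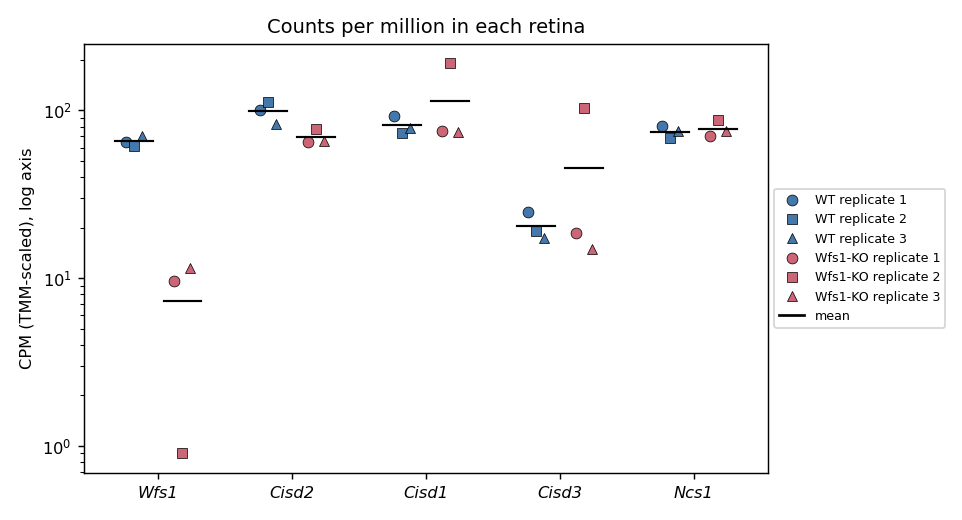
TMM-scaled CPM of each gene in each retina, on a log axis. Points are single retinas, WT in blue and Wfs1-KO in red, and bars are means of 3. Wfs1 and Cisd2 are the genes without overlap between genotypes, and Wfs1-KO replicate 2 lies above all other retinas for Cisd1 and Cisd3.

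Cisd2, the other Wolfram syndrome gene, was the only member besides Wfs1 whose genotypes did not overlap. It had 100.6, 112.5 and 82.7 CPM in WT replicates 1, 2 and 3, and 64.8, 77.5 and 66.1 CPM in Wfs1-KO replicates 1, 2 and 3. Every mutant retina lay below every WT retina, with a gap of 77.5 to 82.7 CPM between the nearest ones. In each mutant retina the level was 65.8%, 78.6% and 67.0% of the WT mean. The log2 fold change was -0.51 (SE 0.18, 95% confidence interval -0.93 to -0.08, unadjusted p = 0.0266 and adjusted p = 0.979 from edgeR). An exact two-sided permutation test gave p = 0.1, the smallest possible here.

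Cisd2 therefore did not pass the test across all genes. Of the tested genes, 3.94% were lower in Wfs1-KO without overlap (731 genes), and 2 of the 5 members, Wfs1 and Cisd2, were of this kind. Wfs1 is the gene targeted in these mice, which leaves Cisd2 as the only such member not altered by design. A further 5.01% were higher without overlap (930 genes), which held for 0 of the 5. Without Wfs1-KO replicate 2 the log2 fold change of Cisd2 was -0.60 (SE 0.15, 95% confidence interval -0.94 to -0.26, unadjusted p = 0.00278 and adjusted p = 0.416 from edgeR). It was -0.64 (SE 0.21) without WT replicate 3 and -0.40 (SE 0.20) without WT replicate 2, the highest of the WT retinas. Its sign was negative under every alternative run, but leaving out 1 retina gave an interval that crossed 0 in 4 of 6 fits (unadjusted p 0.0661 to 0.0974).

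Cisd1 and Cisd3 shared a different pattern, with 1 mutant retina far above all others. Cisd1 had 92.5, 73.6 and 78.3 CPM in WT replicates 1, 2 and 3, and 75.7, 190.6 and 74.2 CPM in Wfs1-KO replicates 1, 2 and 3. Cisd3 had 24.9, 19.2 and 17.3 CPM in WT, and 18.5, 103.3 and 14.9 CPM in Wfs1-KO retinas, in the same order. For both genes, mutant replicates 1 and 3 lay near or within the WT range. Wfs1-KO replicate 2 stood at 234% of the WT mean for Cisd1 and at 506% for Cisd3.

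Neither paralog differed between genotypes beyond this spread. The log2 fold change of Cisd1 was 0.48 (SE 0.38, 95% confidence interval -0.41 to 1.37, edgeR adjusted p = 0.979), and without Wfs1-KO replicate 2 it was -0.13 (SE 0.14, 95% confidence interval -0.44 to 0.19, adjusted p = 0.968). For Cisd3 it was 1.15 (SE 0.71, 95% confidence interval -0.51 to 2.82, adjusted p = 0.979), and -0.30 without that retina (SE 0.19, 95% confidence interval -0.73 to 0.13, adjusted p = 0.968). The sign of both estimates thus came from 1 library. Without WT replicate 3 they were 0.43 for Cisd1 and 1.02 for Cisd3. Exact two-sided permutation tests on 6 retinas gave p = 0.8 for Cisd1 and p = 0.9 for Cisd3.

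Across all tested genes, levels in Wfs1-KO replicate 2 went with exon length, and Cisd1 and Cisd3 are short genes. Tested genes were ordered by exon length into 5 equal groups, and each retina was compared with the WT mean. In Wfs1-KO replicate 2 the median log2 difference was 0.82 for the shortest genes (54 to 1502 bases), 0.37, 0.01 and -0.25 for the next groups, and -0.50 for the longest. In the other 5 retinas the medians ran between -0.20 and 0.16. WT replicate 1 held both ends, falling from 0.16 for the shortest genes to -0.20 for the longest. In the remaining retinas the medians rose with length. Cisd3 (833 bases) and Cisd1 (1084 bases) are in the shortest group, and Wfs1 (3787 bases), Cisd2 (4360 bases) and Ncs1 (4653 bases) are in the fourth. Against the WT mean of log2 CPM, this retina stood at 2.35 for Cisd3 and 1.23 for Cisd1, above the median of their group, and at -0.34 for Cisd2, 0.24 for Ncs1 and -6.12 for Wfs1. With a smooth trend on length taken out of each library, Cisd1 stood at 0.42, Cisd3 at 1.42, Cisd2 at -0.11, Ncs1 at 0.50 and Wfs1 at -5.99. Wfs1 thus stayed far below the trend for its length. The part of length or of cells of other tissues in these values was not tested.

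**Figure D3:**
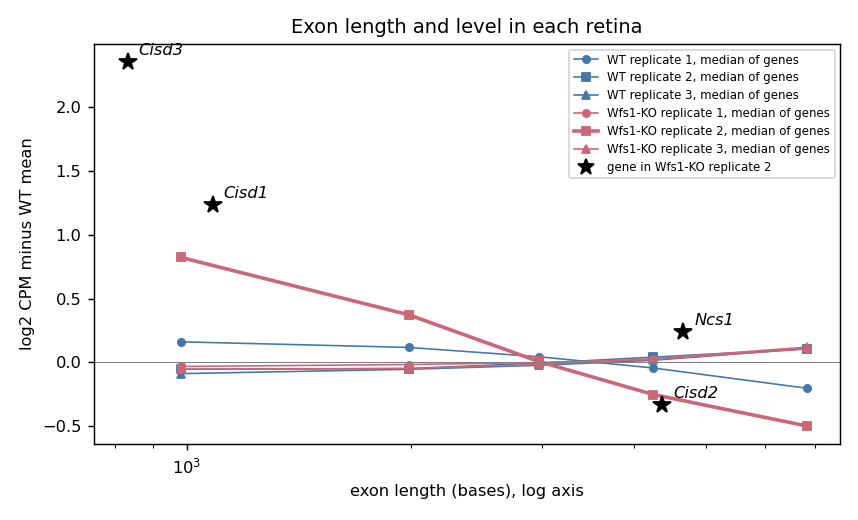
Median difference from the WT mean in log2 CPM for 5 groups of tested genes by exon length (bases, log axis), 1 line per retina, with Cisd3, Cisd1, Cisd2 and Ncs1 in Wfs1-KO replicate 2 as stars. Wfs1 in that retina, at -6.12, lies below the drawn range. The line of Wfs1-KO replicate 2 runs from 0.82 to -0.50, and that of WT replicate 1 from 0.16 to -0.20. The lines of the remaining retinas rise with length and stay between -0.09 and 0.12.

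Removing the length trend from every library also gave an estimate on all 6 retinas, with this alternative added after the data were seen. The log2 fold changes were then -3.15 for Wfs1, -0.44 for Cisd2 (SE 0.19, 95% confidence interval -0.89 to 0.01), 0.12 for Cisd1, 0.55 for Cisd3 and 0.14 for Ncs1. The sign of each member was as before. For Cisd1 the estimate moved from 0.48 to 0.12, and for Cisd3 from 1.15 to 0.55.

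The make-up of the CISD family was compared next, and Cisd1 held the largest part in every retina. Of the CISD level per length, Cisd1 held 58.1% to 64.5% in WT and 65.3% and 67.5% in Wfs1-KO replicates 1 and 3. Cisd2 held 16.7% to 22.1% in WT and 13.9% and 14.9% in these mutant retinas. Cisd3 held 18.5% to 21.6% in WT and 20.8% and 17.6%. In Wfs1-KO replicate 2 the shares were 55.3% for Cisd1, 5.59% for Cisd2 and 39.1% for Cisd3. The ratio of Cisd2 to Cisd1 was thus 0.263 to 0.380 in WT and 0.213, 0.101 and 0.221 in Wfs1-KO replicates 1, 2 and 3, without overlap between genotypes. This ratio sets a longer gene against a shorter one, and no test was made of it.

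For Ncs1 the estimate lay near 0 in each fit. It had 80.2, 68.3 and 74.9 CPM in WT replicates 1, 2 and 3, and 70.1, 87.7 and 75.8 CPM in Wfs1-KO replicates 1, 2 and 3. The genotypes overlapped, and Wfs1-KO replicate 2 was again the highest. The log2 fold change was 0.06 (SE 0.17, 95% confidence interval -0.33 to 0.46, edgeR adjusted p = 0.979). Without Wfs1-KO replicate 2 it was -0.04 (SE 0.13, 95% confidence interval -0.33 to 0.26, adjusted p = 0.988), and without WT replicate 3 it was 0.05. These intervals leave room for differences of that size in either direction.

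**Figure D4:**
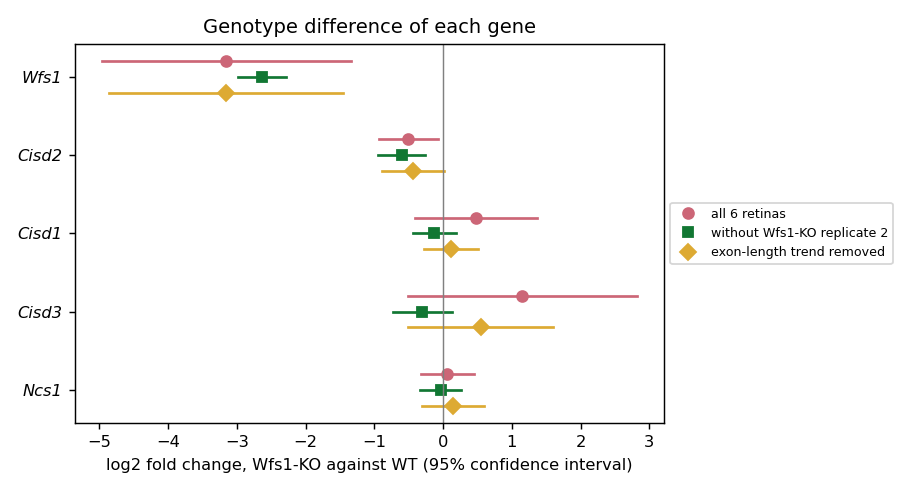
Log2 fold change of each gene, Wfs1-KO against WT, with its 95% confidence interval from edgeR, on all 6 retinas (circles), without Wfs1-KO replicate 2 (squares) and with the exon-length trend removed from each library (diamonds). The interval of Wfs1 lies below 0 in all 3 fits, and that of Cisd2 ends at -0.08, -0.26 and 0.01. Cisd1, Cisd3 and Ncs1 cross 0 in all 3 fits and are below 0 without Wfs1-KO replicate 2.

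The members also differed in how much they varied between animals of one genotype. In WT the coefficient of variation of CPM was 6.58% for Wfs1, 8.01% for Ncs1, 12.1% for Cisd1, 15.2% for Cisd2 and 19.3% for Cisd3, against a median of 16.7% over all tested genes. In Wfs1-KO it was 77.0% for Wfs1, 58.8% for Cisd1 and 110% for Cisd3, and it was 10.01% for Cisd2 and 11.5% for Ncs1. The 3 genes with a wide spread in the mutant are the ones for which Wfs1-KO replicate 2 lies far from its group.

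For each member, the tested genes with the most similar profile were sought by the root-mean-square difference of centred log2 CPM over the 6 retinas, among 15105 genes with at least 50 counts on average. Wfs1 had no close match: the nearest were Sik2, a kinase, at 0.936, Tdg, a DNA glycosylase, at 1.02, and Pcna-ps2 at 1.13, where the median over genes was 2.23. Sik2 had 30.2 to 45.8 CPM in WT, 0.995 CPM in Wfs1-KO replicate 2 and 25.7 and 25.99 CPM in the other mutant retinas. The profile of Cisd2 was nearest to those of Gm15513 (0.0755), the immediate early gene Fos (0.0783) and Rbm28 (0.0979), against a median of 0.426. Fos had 36.6 to 44.0 CPM in WT and 28.4 to 32.4 CPM in Wfs1-KO retinas.

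Cisd1 was nearest to the proteasome subunit gene Psmb4 (0.0367) and the ribosomal protein genes Rpl12 (0.0417) and Rpl7 (0.0439), against a median of 0.553. Like Cisd1, these had 1 high library: Psmb4 stood at 302.9 CPM in Wfs1-KO replicate 2 and at 115.1 to 151.3 elsewhere. Cisd3 was nearest to Bola2 (0.0967), Pdgfa (0.104) and Cox4i2 (0.110), against a median of 0.979, and Ncs1 to Rnf114 (0.0228), Ddx27 (0.0247) and Nob1 (0.0252), against 0.329. The 6 points of each profile include the outlying library, so these distances describe the retinas at hand.

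The pathways around the members were examined with 5 hand-written gene lists. In none of them did a gene pass an adjusted p under 0.05 in either direction, on 6 retinas or without Wfs1-KO replicate 2, where 0.0108% and 0.125% of all tested genes did. The median log2 fold change over all tested genes was 0.02, and -0.0004 without that retina.

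Proteins reported to bind wolframin or to be under its control gave 22 tested genes. Their median log2 fold change was -0.02, and 0.06 without Wfs1-KO replicate 2. The highest values were those of Itpr2 and Itpr3, genes of ER calcium channels that answer to inositol trisphosphate. Itpr2 had 24.2 ± 6.82 CPM in WT and 38.1 ± 10.8 CPM in Wfs1-KO (SD, n = 3), a log2 fold change of 0.66 (SE 0.29). Itpr3, at 4.03 ± 1.74 CPM in WT (SD, n = 3), had a log2 fold change of 0.52 (SE 0.34), and the genotypes overlapped for both genes. Itpr1, of the same channel family, had 59.5 ± 16.2 CPM in WT (SD, n = 3). Its log2 fold change was -0.04 (SE 0.40), and 0.29 (SE 0.20) without Wfs1-KO replicate 2. The lowest were Atp1b1, a sodium pump subunit, at -0.33 (SE 0.23) and Slc16a1, the lactate transporter MCT1, at -0.26 (SE 0.16). Itpr2 was at 0.41, Itpr3 at 0.55 and Atp1b1 at -0.13 without Wfs1-KO replicate 2.

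Slc16a1 is of interest because the study followed its protein, so it is not an independent choice. It had 270.1, 327.2 and 283.2 CPM in WT replicates 1, 2 and 3, and 241.5, 259.6 and 232.1 CPM in Wfs1-KO replicates 1, 2 and 3. The genotypes did not overlap, as for 2 of the 22 genes, both lower, where 3.94% of all tested genes were lower without overlap. On 6 retinas its edgeR unadjusted p was 0.150. Without Wfs1-KO replicate 2 its log2 fold change was -0.31 (SE 0.13, edgeR unadjusted p = 0.0391 and adjusted p = 0.903), in a fit where 5.19% of all tested genes had an unadjusted p under 0.05.

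Genes of iron-sulfur cluster assembly and mitochondrial iron, the cofactor side of the CISD proteins, gave 30 tested genes of 32. Their median log2 fold change was 0.07, and -0.11 without Wfs1-KO replicate 2, a change of sign. Among the highest was the co-chaperone gene Hscb at 0.50 (SE 0.34). It is short (804 bases) and had 16.3 CPM in Wfs1-KO replicate 2 against 6.66 to 8.75 in the other 5 retinas. Without that retina its value was 0.03. The lowest were Ndor1, an electron donor of the cytosolic assembly, at -0.55 (SE 0.41) and the scaffold gene Nubp1 at -0.33 (SE 0.22). Both were at -0.20 without that retina, in which Ndor1 had 5.30 CPM against 14.2 to 21.3 in the other 5. Nubp1 was lower without overlap, as the only 1 of the 30 genes, against 3.94% of all tested genes.

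ER-mitochondria contact genes, the site of CISD2, gave 24 tested genes with a median log2 fold change of -0.05 in both fits. Itpr2 and the mitochondrial fission gene Fis1, at 0.60 (SE 0.43), were highest. Fis1 (1102 bases) had 255.7 CPM in Wfs1-KO replicate 2 and 86.4 to 112.7 in the other 5 retinas, and its log2 fold change was -0.11 without that retina. The lowest were the tethers Rmdn3 (PTPIP51) at -0.55 (SE 0.29) and Pdzd8 at -0.31 (SE 0.40). Pdzd8 had 39.3 CPM in Wfs1-KO replicate 2 and 85.2 to 125.9 in the other 5 retinas, and was at 0.05 without that retina. Rmdn3 had 117.0, 100.1 and 89.3 CPM in WT and 83.4, 41.5 and 84.2 CPM in Wfs1-KO retinas, without overlap. Without Wfs1-KO replicate 2 its log2 fold change was -0.29 (SE 0.15, edgeR adjusted p = 0.963). On 6 retinas, 3 of the 24 genes were lower without overlap and 0 higher, against 3.94% and 5.01% of all tested genes.

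Genes of proteins that bind CISD2 gave 6 tested genes of 7, with a median log2 fold change of -0.0031, and 0.09 without Wfs1-KO replicate 2. Bcl2, an inhibitor of cell death that CISD2 binds at the ER, had 33.5, 44.6 and 42.9 CPM in WT replicates 1, 2 and 3 and 46.8, 59.4 and 51.5 CPM in Wfs1-KO retinas. The genotypes did not overlap, with a log2 fold change of 0.38 (SE 0.19, edgeR adjusted p = 0.979). It was at 0.28 (SE 0.15) without Wfs1-KO replicate 2. Its autophagy partner Becn1 was lower without overlap, at -0.35 (SE 0.25), and at -0.13 (SE 0.13) without that retina. The ER calcium pump gene Atp2a2 was at -0.20 (SE 0.34) and turned to 0.09 without it, and Bcl2l1, a relative of Bcl2, was at 0.04 (SE 0.17) and -0.05. Bik, another gene of this group, had a log2 fold change of 1.56 (SE 0.80) on 49.2 counts on average, and 0.09 without Wfs1-KO replicate 2. On 6 retinas, 1 of the 6 genes was lower and 1 higher without overlap, against 3.94% and 5.01% of all tested genes.

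The neuronal calcium sensors related to Ncs1 gave 12 tested genes, with a median log2 fold change of -0.05, and -0.02 without Wfs1-KO replicate 2. Rcvrn (recoverin), the calcium sensor of photoreceptors, was the highest of them per length in WT, with 1310 ± 222 CPM per kilobase (SD, n = 3), against 16.01 ± 1.28 for Ncs1. Photoreceptor Guca1a and Guca1b, which activate guanylate cyclase when calcium is low, had the lowest log2 fold changes, -0.62 (SE 0.21) and -0.27 (SE 0.18), and Guca1b was at -0.20 without Wfs1-KO replicate 2. The highest were Hpcal1 at 0.17 (SE 0.17) and Ncald at 0.12 (SE 0.15), whose genotypes overlapped and which were at 0.10 and 0.09 without that retina.

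Guca1a was the one gene of the 5 lists with an unadjusted p under 0.05 on 6 retinas. It had 25.1, 26.0 and 20.9 CPM in WT replicates 1, 2 and 3, and 16.9, 12.3 and 17.8 CPM in Wfs1-KO replicates 1, 2 and 3, without overlap. The edgeR unadjusted p was 0.0209 and the adjusted p 0.979. Without Wfs1-KO replicate 2 its log2 fold change was -0.48 (SE 0.16, unadjusted p = 0.0122 and adjusted p = 0.709). Over all tested genes, 2.81% had an unadjusted p under 0.05 on 6 retinas and 5.19% without that retina. Of the 12 calcium sensor genes, 1 was lower without overlap on 6 retinas, against 3.94% of all tested genes.

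**Figure D5:**
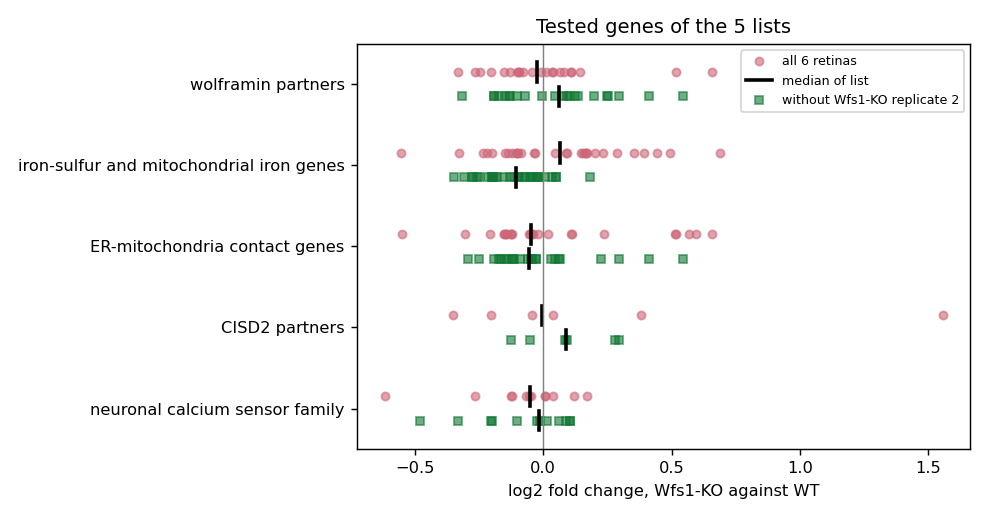
Log2 fold change, Wfs1-KO against WT, of every tested gene in 5 gene lists, on all 6 retinas (circles) and without Wfs1-KO replicate 2 (squares), with the median of each list as a black bar. Medians lie between -0.05 and 0.07 on 6 retinas and between -0.11 and 0.09 without Wfs1-KO replicate 2.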

How the data were processed

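Per the labels and the methods, RNA of whole retinas was made into Illumina TruSeq libraries. The authors trimmed reads with Trimmomatic (0.39 in the submitters' processing notes), mapped them to mm10 with STAR (2.5.3a) and summed exon reads by gene with featureCounts (1.6.4). The methods name later versions of Trimmomatic and STAR than these notes. The deposited values were raw counts per gene and library, with the exon length of each gene in bases. The strand setting is not given in the sources used here. Of the 8 library columns, 6 matched a listed sample by genotype letter and replicate number, with C read as control and W as Wfs1. This was read from the names alone, and Wfs1 was then lower in all 3 columns read as Wfs1-KO than in those read as WT. The other 2 columns bear the same genotype letters but match no listed sample, and were not used. Which of the mutant libraries the paper used could not be settled.

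Genotypes were compared with edgeR 4.0.16 (R 4.3.3) on the counts as deposited: TMM normalization, filterByExpr, a quasi-likelihood fit on genotype alone, and Benjamini-Hochberg adjustment over all tested genes with a threshold of 0.05. DESeq2 1.42.0, the tool of the methods, limma 3.58.1 and other normalizations, filters and left-out retinas served as alternatives. Standard errors are the log2 fold change divided by the square root of the quasi-likelihood F statistic. Levels are TMM-scaled CPM, divided by exon length where genes are compared. For profiles, CPM were put on a log2 scale after adding 2 prior counts. Sequences and gene models are from GENCODE M21 (mm10), which held 98.4% of the symbols in the table. Exon length was the same for 71.3% of these, Wfs1, Cisd1, Cisd3 and Ncs1 included, while Cisd2 has 4360 exon bases in the table and 7667 in M21.

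Members and gene lists were chosen with earlier results of these data known. Named genes are the 5 members. From each list they are any gene past the threshold and the 2 highest and 2 lowest log2 fold changes among tested genes with at least 50 counts on average. For each member they also include the 3 nearest profiles. Bik, Rcvrn and Itpr1 fall outside this rule and were chosen after their values were seen. A gene that the rule names in the iron-sulfur list is not reported here.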

Additional observations from a re-analysis of the deposited data

How the results depend on the processing

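Cisd2 kept its negative sign and stayed short of an adjusted p of 0.05 under all 17 alternatives. Wfs1 kept its sign and passed with DESeq2 (-3.17), limma-voom with sample quality weights (-2.75, which gave Wfs1-KO replicate 2 a weight of 0.0930), without that retina in edgeR, and in DESeq2 without it (-2.64). Leaving out each retina in turn gave -3.61 to -2.64 for Wfs1, -0.13 to 0.70 for Cisd1, -0.30 to 1.57 for Cisd3 and -0.035 to 0.13 for Ncs1. The sign of the last 3 turned only without Wfs1-KO replicate 2 (edgeR: -0.13, -0.30 and -0.035; DESeq2: -0.13, -0.30 and -0.036) and with quality weights (-0.060, -0.15 and -0.029). None of these estimates passed the threshold.

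Genes past the threshold numbered 49 with DESeq2, 35 with quality weights, 9 with no filter on low counts, 6 with the length trend removed, 95 with DESeq2 without Wfs1-KO replicate 2, and 0 to 24 when each retina was left out in turn: 0 without any one WT retina, 24 without Wfs1-KO replicate 2. At an unadjusted p under 0.05 the fits without a WT retina held 303 to 378 genes. The cause of these shifts was not tested.

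Deviations of same-numbered retinas from their genotype means had correlations of -0.234, -0.111 and 0.0784. The mutant means include the outlying Wfs1-KO replicate 2, so these values cannot show whether the numbers pair the samples. With a replicate block, Wfs1 stood at -3.65, Cisd2 at -0.50, Cisd1 at 0.33, Cisd3 at 0.54 and Ncs1 at 0.06, and 1 gene passed.

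On the TPM scale, WT means were 48.9 for Wfs1, 64.0 for Cisd2, 212.2 for Cisd1, 69.2 for Cisd3 and 45.3 for Ncs1, in the same order as per kilobase. The longest coding transcript moved Cisd2 to 29.3 CPM per kilobase. With 3 retinas per genotype, the intervals given bound what could be detected.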
